A study of Mus musculus with 53 samples.

Results

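Deubiquitinases are the enzymes that remove ubiquitin from proteins. The 56 genes described here were those of the count table whose symbol was Usp followed by a number and at most 1 letter, Uchl followed by a number, or began with Otud or Otub. They made up 56 of the 12372 genes in the table: 43 ubiquitin-specific proteases (USP), 4 ubiquitin C-terminal hydrolases (UCH) and 9 ovarian tumour domain proteases (OTU). They were picked by name, within a table that the authors had already limited to genes above a low level.

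Ubiquitin is a small protein that is linked to other proteins, singly or in chains, by a cascade of E1, E2 and E3 enzymes. Chains of different linkage send a protein to the proteasome, sort a receptor in the endosome or mark a site of DNA damage, and deubiquitinases cut these chains, rescue or edit the tagged protein and return free ubiquitin to the pool. Ataxin-3, the protein carrying the expanded glutamine repeat in spinocerebellar ataxia type 3 (SCA3), is itself a deubiquitinase, of the Josephin family, and loss of other family members is known to cause ataxia in mice, among them Uchl1 in the gracile axonal dystrophy strain and Usp14 in the ataxia strain.

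RNA was sequenced from brainstem, cerebellum, cortex and striatum of 14 untreated male mice, 8 wild-type C57BL/6 and 6 MJD84.2, which carry the whole mutant human ATXN3 gene under its own promoter beside the intact mouse Atxn3. All animals were aged to about 17.5 months, with recorded ages that differed by up to a few weeks and were not fully matched between genotypes. Motor tests had found no ataxia in the transgenic animals, called SCA3 here. The 53 libraries comprised 8 wild-type and 6 SCA3 mice for brainstem, 7 and 6 for cerebellum, 7 and 6 for cortex, and 8 and 5 for striatum, each library from 1 animal. Total counts in the table ran from 31680939 to 76703758 per library, RNA integrity numbers (RIN) ran from 5.7 to 9, and the 56 genes together took 0.488 to 0.572% of a library's counts. Levels are CPM, each count divided by the library's total and put on a common scale, with totals adjusted by the trimmed mean of M-values (TMM), and differences are log2 values with their standard error (SE) from edgeR's likelihood ratio test, adjusted over all 12372 genes as a false discovery rate (FDR) and called when it was below 0.05.

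The labelled regions were checked against cell type markers. The mean log2 CPM of 6 granule cell markers was 8.49 in wild-type cerebellum and at most 3.80 in the other wild-type regions, and that of 13 striatal projection neuron markers was 8.26 in striatum, 6.99 in cortex and at most 4.37 elsewhere. None of 11 hindbrain markers was among the 12372 genes analysed here, so the brainstem label could not be checked in this way. Some libraries stood apart in markers of neighbouring tissue. The mean log2 CPM of 10 thalamic markers reached 7.04 and 7.34 in the striatum of wild-type mice 7267058 and 7267059, against a lowest value of 3.40 in that group, and was also high in the brainstem of wild-type mice 7267055 and 9083373 (5.92 and 5.31) and SCA3 mice 9083514 and 9083515 (5.77 and 5.85). Counts of calls are also given without these 6 libraries, a choice made after the data were seen and with a different limit in each region. In striatum the libraries kept reached 5.29, in wild-type mouse 9083373, which is close to the lowest brainstem library left out (5.31), and in brainstem those kept reached 5.03. The same score ran from 5.24 to 5.75 in wild-type cerebellum, so a brainstem value of this size is not particular to thalamic tissue. The granule cell score also varied in brainstem, reaching 4.90 in wild-type and 5.27 in SCA3 libraries. The 3 choroid plexus markers measured, none at 0, varied within groups as well, with a summed level of 19.6 to 2120 CPM (median 140) in wild-type and 658 to 2000 CPM (median 1140) in SCA3 cerebellum, and of 20.5 to 1080 CPM (median 52.3) in wild-type and 16.8 to 244 CPM (median 43.9) in SCA3 cortex. Their part in the results was not tested.

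All 56 genes could be placed on GRCm38 with the GENCODE vM21 annotation, on 18 chromosomes and with 4 on the X. The library kit did not keep strand, and 17 of the 56 share exon bases with a gene on the opposite strand, 9 of them with a protein-coding gene. Usp29 overlaps the antisense gene Zim3 over 2582 bases, Usp14 overlaps Thoc1 over 2169 bases, Usp34 overlaps Ahsa2 over 2137 bases and Usp31 overlaps 1700069B07Rik over 179 bases. Reads from such stretches cannot be told apart by gene. Usp49 also shares 4392 exon bases with Gm20517 on the same strand.

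Uchl3 and Uchl4 were a case of their own and are shown by sequence, because the table counts near-identical genes separately. Uchl3, a hydrolase that trims small adducts from ubiquitin, lies at chr14:101653967-101696125 (plus strand) with a coding sequence in 9 exons, and Uchl4 lies at chr9:64235201-64236362 (plus strand) with its coding sequence in 1 exon. Over 693 aligned coding bases 675 were identical (97.4%) and 18 differed, and the longest stretch without a difference was 145 bases. By comparison, the coding sequences of Uchl1 and Uchl3 were identical at 62.6% of aligned bases. A stretch of 90 bases (coding positions 285 to 374 in Uchl3 and 294 to 383 in Uchl4) is printed 5′ to 3′ from the GRCm38 annotated transcripts, with the 3 bases that differ in capitals.
Uchl3: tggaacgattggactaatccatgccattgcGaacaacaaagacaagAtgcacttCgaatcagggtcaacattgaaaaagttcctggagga
Uchl4: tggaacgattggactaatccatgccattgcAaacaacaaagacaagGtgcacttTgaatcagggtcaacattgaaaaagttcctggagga
The mean level in wild-type mice was 12 CPM in brainstem, 9.84 in cerebellum, 11.5 in cortex and 11.2 in striatum for Uchl3, and 8.73, 6.13, 8.32 and 8.71 CPM for Uchl4 in the same order. The authors' alignment kept only reads with a single place in the genome, so reads that fit both copies equally were not counted. The levels of both genes can thus be too low, and the split of the other reads between these copies is uncertain. Neither gene was called between genotypes in any region.

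Levels between genes were compared per exon length, in RPKM (CPM divided by the exon length in kilobases), averaged over all 53 libraries. Uchl1, the abundant neuronal hydrolase, stood highest with a mean of 187 RPKM and a range of 40.2 to 284. Otub1, an OTU protease that also restrains E2 enzymes, followed with 53.5 RPKM, Usp22, the deubiquitinase of the SAGA transcription complex, with 49.7, Usp5, which takes apart free ubiquitin chains, with 43, and Usp11, an X-linked protease of the DNA damage response, with 36.8. The lowest means were 2.15 RPKM for Usp53, 2.88 for Uchl3, which lacks reads that fit Uchl4 equally, and 3.1 for Usp29. This order pools the regions and did not hold in each of them. In wild-type cerebellum Usp22 (43.4 ± 3.46 RPKM, SD, n = 7) had a higher mean than Otub1 (40.5 ± 2.15), and Usp29 (1.63 ± 0.52) a lower one than Usp53 (2.51 ± 0.08). In wild-type brainstem the mean of Usp3 (2.79 ± 0.25 RPKM, n = 8) was within the spread of that of Usp53 (2.92 ± 0.69).

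Between wild-type mice of the same region the 56 genes varied little. The coefficient of variation, averaged over the 4 wild-type groups, had a median of 9% over the 56 genes and 11.3% over all genes. It was lowest for Usp7, the protease of Mdm2 and p53 (4.58%), Usp38 (5.21%) and Usp39, a splicing factor without protease activity (5.39%). It was highest for Usp29, an imprinted gene of the Peg3 domain (34.9%), Usp27x, an X-linked relative of Usp22 (21.3%), and Otud1 (20.6%). The highest Usp29 value of all wild-type mice came from mouse 7267055 in each of the 4 regions, with 107 CPM in brainstem, 41.3 in cerebellum, 113 in cortex and 106 in striatum.

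The first comparison was between regions in wild-type mice, each region against the mean of the other 3, called at an FDR below 0.05 and a difference of at least 1 on the log2 scale. Only 6 of the 56 genes met this. Usp3, which removes ubiquitin from histone H2A, was the gene with the widest range, 6.45-fold between cerebellum and brainstem, and Uchl1 went the opposite way in cerebellum. In brainstem 3 of 56 genes were called (5.36%, against 6.88% of all genes), in cerebellum 4 of 56 (7.14%, against 14.1%), in cortex 0 (6.44% of all genes) and in striatum 0 (5.56%). Without a minimum difference the same edgeR test called 45 of 56 in brainstem (80.4%, against 70.1% of all genes), 42 in cerebellum (75%, against 73.7%), 40 in cortex (71.4%, against 59.6%) and 27 in striatum (48.2%, against 55%). In cortex and striatum no gene of the 56 differed by as much as 1, and the differences furthest from 0 were −0.77 for Otud7b and 0.57 for Usp28. Without the 6 libraries with high thalamic scores the brainstem count with the minimum was 4, Otud7b (1.06, SE 0.08, FDR 5.3e-42) being added, and the others stayed at 4, 0 and 0. Without a minimum the counts were then 44, 42, 38 and 27 (70.4%, 74.9%, 59.4% and 58.7% of all genes were called), with 4 genes lost and 3 gained in brainstem, 3 lost and 1 gained in cortex, and 5 lost and 5 gained in striatum.

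Usp3 in wild-type cerebellum had a lowest value of 104 CPM, a median of 116 and a highest of 156. In brainstem it ran from 16.8 to 21.5 with a median of 19.3 CPM, in cortex from 26.6 to 33.9 with a median of 29.2, and in striatum from 26.1 to 49.1 with a median of 37.1. Every cerebellar library was thus above every library of the other regions, and every brainstem library was below every cortical and striatal one, while cortex and striatum overlapped. The log2 difference of Usp3 from the other regions was 2.16 in cerebellum (SE 0.09, FDR 2.3e-141) and −1.43 in brainstem (SE 0.09, FDR 6.9e-46).

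Uchl1 showed the reverse in cerebellum. Its wild-type cerebellar libraries ran from 65.6 to 138 CPM with a median of 113, against 322 to 461 (median 409) in brainstem, 331 to 400 (median 391) in cortex and 272 to 367 (median 343) in striatum. No cerebellar library reached the lowest library of another region, and the other 3 regions overlapped. The log2 difference was −1.83 in cerebellum (SE 0.1, FDR 9.5e-56). In these bulk tissues, fewer cells that express a gene and less RNA per cell cannot be told apart.

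The sequence around the start of these genes is shown because their regional levels were the most opposed. The 250 bases before the start annotated by RefSeq on GRCm38.p6 lie at chr9:66593116-66593365 (minus strand) for Usp3 and at chr5:66675871-66676120 (plus strand) for Uchl1, and are printed 5′ to 3′ in the direction of the gene, with every GC box (GGGCGG, or CCGCCC on the other strand) in capitals.
Usp3: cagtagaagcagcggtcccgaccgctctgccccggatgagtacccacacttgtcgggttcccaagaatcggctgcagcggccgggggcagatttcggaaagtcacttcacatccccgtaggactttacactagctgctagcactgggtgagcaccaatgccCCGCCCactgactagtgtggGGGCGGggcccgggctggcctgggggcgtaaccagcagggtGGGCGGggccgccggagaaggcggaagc
Uchl1: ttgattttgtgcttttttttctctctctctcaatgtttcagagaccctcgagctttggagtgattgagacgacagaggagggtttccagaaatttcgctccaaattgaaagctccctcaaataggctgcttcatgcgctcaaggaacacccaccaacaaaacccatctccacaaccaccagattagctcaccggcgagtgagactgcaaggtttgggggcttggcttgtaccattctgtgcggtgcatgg
GENCODE places both starts further upstream, so that the last 27 bases of the Usp3 window, with 5 bases of its last GC box, and the last 30 bases of the Uchl1 window lie inside the gene by that annotation. The Usp3 window held 3 GC boxes, 18 CpG dinucleotides and 66% G or C. The Uchl1 window held no GC box, 7 CpG dinucleotides and 48.8% G or C. A GC box was found in 31 of the 45 promoters that could be read for the 56 genes (68.9%) and in 60.8% of 9474 promoters of genes in the table. CCAAT (or ATTGG) was in 9 of the 45 (20%) and in 36.2% of the 9474, and TATAAA (or TTTATA) was in 2 of the 45 (4.44%) and in 5.7%. These are matches of letters and were not related to the levels.

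Usp2, a protease with a daily rhythm in many tissues, and Usp28, a partner of 53BP1 that also stabilises Myc, were low in brainstem. Usp2 ran from 21.8 to 30.2 CPM in wild-type brainstem (median 25), from 64.1 to 97.1 in cerebellum (median 83.3), from 40.8 to 76 in cortex (median 68.4) and from 47.9 to 83.5 in striatum (median 63.8). Usp28 ran from 21.6 to 25.7 CPM in brainstem (median 24), from 62.8 to 84.2 in cerebellum (median 66), from 36.4 to 61.9 in cortex (median 51) and from 39.8 to 97.1 in striatum (median 58.1). For both genes no brainstem library overlapped those of another region, while the other regions overlapped one another, except that the cerebellar and cortical libraries of Usp28 did not. The brainstem differences were −1.45 for Usp2 (SE 0.1, FDR 3.1e-41) and −1.36 for Usp28 (SE 0.1, FDR 1.2e-35).

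Usp27x and Usp29 were low in cerebellum. Usp27x ran from 7.29 to 9.58 CPM there (median 8.14) and from 10.5 to 19.2 in brainstem (median 13), 17.6 to 30.4 in cortex (median 21.3) and 12 to 27.6 in striatum (median 19.7), so that the cerebellar libraries lay below all others. Usp29 ran from 17.7 to 41.3 CPM in cerebellum (median 30.2), which overlapped the 30.5 to 113 of cortex (median 42.3) and the 36.9 to 106 of striatum (median 65.9) but not the 62.9 to 107 of brainstem (median 74.9). The cerebellar differences were −1.17 for Usp27x (SE 0.13, FDR 6.6e-16) and −1.22 for Usp29 (SE 0.2, FDR 7e-08). Each of the 6 genes kept its call under all 26 alternative settings tried.

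**Figure D1:**
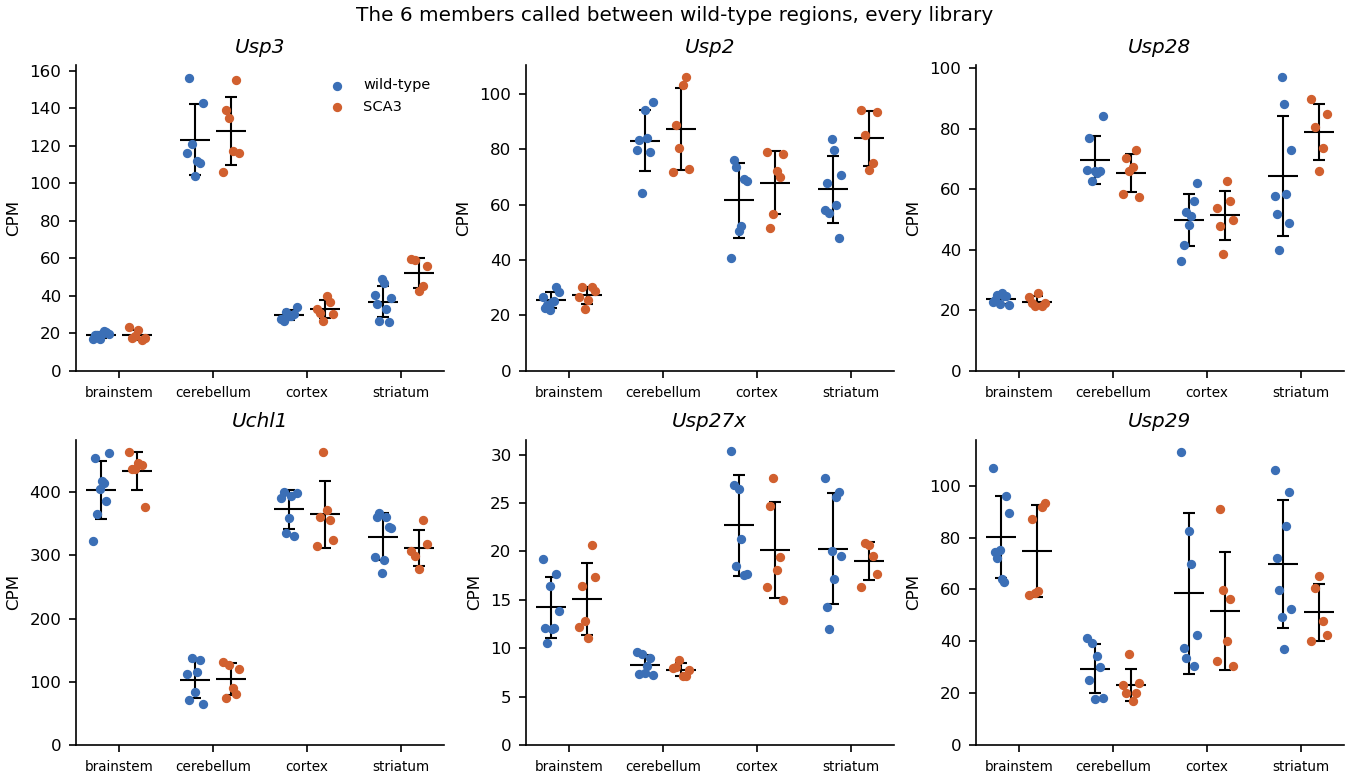
CPM of Usp3, Usp2, Usp28, Uchl1, Usp27x and Usp29 in every library (points) by region on the x axis, wild-type in blue and SCA3 in orange, with mean and SD as bars. Usp3 stands at 104 CPM or more in every wild-type cerebellar library and at 49.1 or less in the other wild-type libraries, and Uchl1 shows the reverse.

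The smaller regional differences are given by what the enzymes act on. The groups were assigned from general knowledge of each protein, with earlier results of these data known, and carry no test of their own. The 7 genes that work at the proteasome or on ubiquitin itself (Uchl1, Uchl3, Uchl4, Uchl5, Usp5, Usp13 and Usp14) were all lower in wild-type cerebellum than in the other regions without a minimum difference (38.4% of all genes were), with log2 differences from −1.83 to −0.20 and a median of −0.48. All 7 were higher in brainstem (34.1% of all genes were), from 0.11 to 0.83 with a median of 0.36. Since each region is set against the others, these counts are not independent of each other, and the reads of Uchl3 and Uchl4 can be lost or mixed. The counts stayed at 7 and 7 with RLE size factors and with the mouse as a replicate block. Without the 6 libraries with high thalamic scores 7 were still lower in cerebellum but only 4 were higher in brainstem (34% of all genes were), since Uchl3 (0.15, FDR 0.051), Uchl4 (0.18, FDR 0.07) and Usp5 (0.10, FDR 0.069) were no longer called. Usp14, which rides on the proteasome and trims its substrates, had mean levels of 153 ± 5.6 CPM in brainstem (SD, n = 8), 91.4 ± 9.79 in cerebellum (n = 7), 141 ± 15 in cortex (n = 7) and 127 ± 14.4 in striatum (n = 8), and its cerebellar difference was −0.61 (SE 0.06, FDR 2.2e-22). Uchl5, the other cysteine protease of the proteasome, was set apart by its brainstem level, 62.5 ± 6.69 CPM (n = 8) against 36.6 ± 3.13 in cerebellum (n = 7), with a brainstem difference of 0.83 (SE 0.08, FDR 6.2e-28). Usp5 differed less, by −0.41 in cerebellum (SE 0.05, FDR 2.1e-17).

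The 9 genes of DNA repair and the p53 pathway leaned the other way in cerebellum. There 6 were higher (Usp1, Usp7, Usp24, Usp28, Usp47 and Usp48; 35.3% of all genes were), 1 was lower (Usp11) and 2 were not called (Usp10 and Usp45). Usp1, which deubiquitinates the Fanconi anaemia protein FANCD2 and PCNA, differed by 0.65 in cerebellum (SE 0.06, FDR 5e-30), and Usp7 by 0.37 (SE 0.04, FDR 4.8e-23). Usp11 fell furthest outside, at 100 ± 12.9 CPM in cerebellum (n = 7) against 166 ± 24.7 in brainstem (n = 8), 212 ± 50.1 in cortex (n = 7) and 215 ± 46.7 in striatum (n = 8), a cerebellar difference of −0.97 (SE 0.11, FDR 2.4e-15). Among the 7 histone and transcription genes, Usp3, Usp16, Usp21 and Usp36 were higher in cerebellum and Usp22 and Usp27x lower. In brainstem 4 of the 7 were lower (36% of all genes were), and 6 without the 6 libraries (36.4%), Usp22 and Usp27x being added.

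The 9 OTU genes were mostly low in brainstem, where 6 were lower (36% of all genes were) and 2 higher, with log2 differences from −0.86 to 0.87. Otud1, a short-lived transcript of stress responses, differed by −0.86 in brainstem (SE 0.11, FDR 7.2e-13) and by 0.76 in cortex (SE 0.11, FDR 5e-11), with mean levels of 10.6 and 24.6 CPM. Otub2 differed by −0.55 in brainstem and 0.76 in cortex, Otud3 by −0.55 and 0.62, and Otud7a by −0.65 and 0.38, all called without a minimum difference. Otud7b (Cezanne), an OTU protease with a marked preference for a single kind of ubiquitin chain, ran against these. Its brainstem difference was 0.87 (SE 0.1, FDR 1.1e-19) and its cortical difference −0.77 (SE 0.1, FDR 4.8e-12), with mean levels of 204 ± 39.1 CPM in brainstem (n = 8) and 86.9 ± 12.3 in cortex (n = 7). Usp54, a family member thought to lack activity, had the same order, 175 ± 17.5 CPM in brainstem (n = 8) and 95.4 ± 8.32 in cortex (n = 7).

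The fold between the highest and the lowest wild-type region had a median of 1.49 over the 56 genes and 1.5 over all genes. It reached 2 for 9 of the 56 (16.1%, against 26.7% of all genes): Otud1, Otud7b, Uchl1, Usp2, Usp3, Usp11, Usp27x, Usp28 and Usp29. Uchl5 lay just under this limit, at 2 when rounded. The highest mean was in cerebellum for 19 of the 56 genes (33.9%, against 33.3% of all genes), in brainstem for 18 (32.1%, against 27.9%), in cortex for 14 (25%, against 22.3%) and in striatum for 5 (8.93%, against 16.5%).

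**Figure D2:**
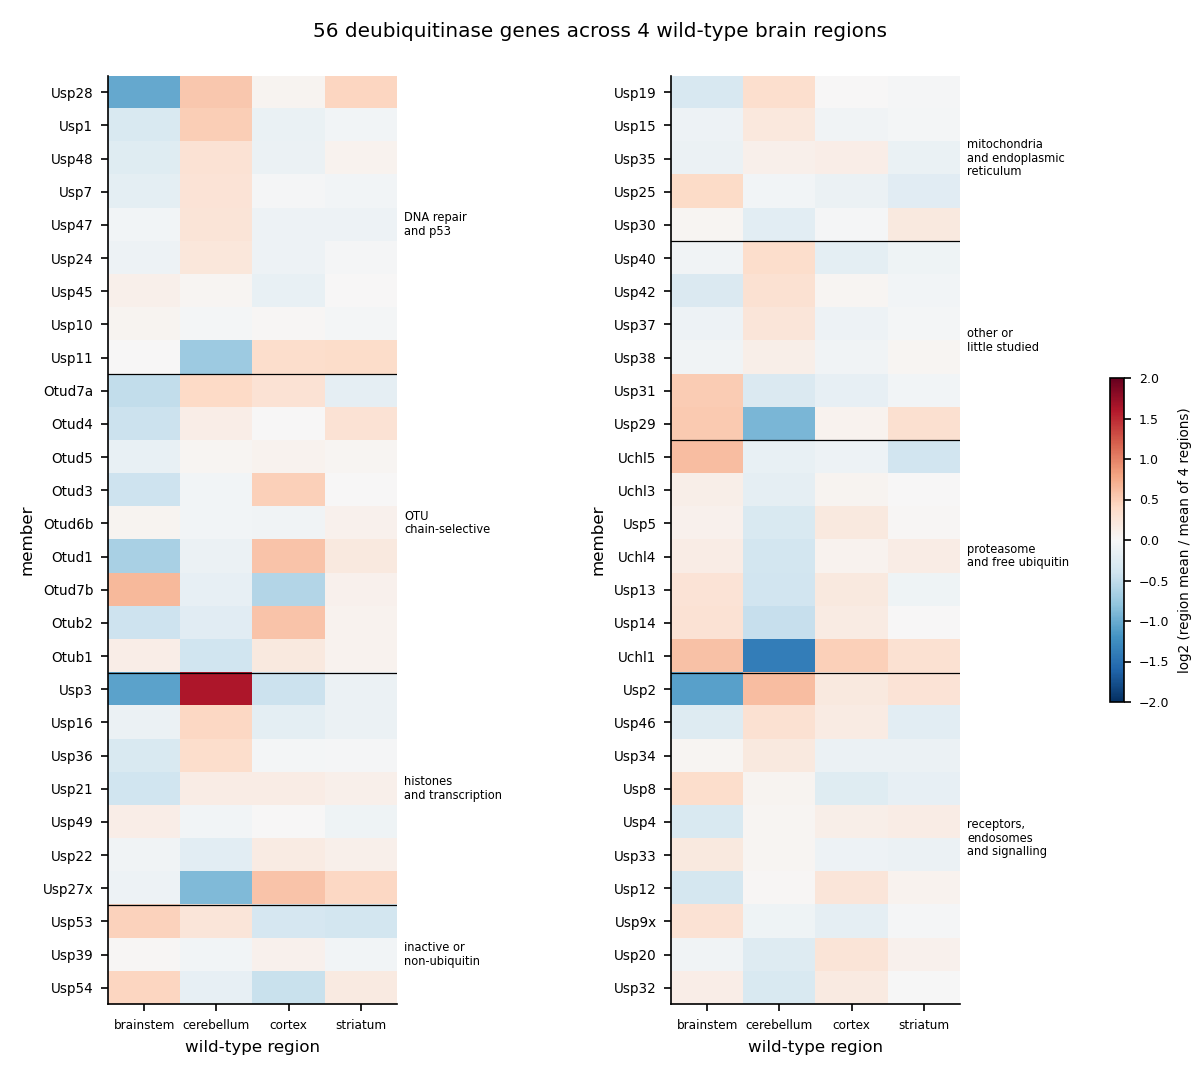
Colour shows the log2 ratio of each gene's wild-type mean CPM in a region (x axis) to its mean over the 4 regions, for the 56 genes (y axis) by role, from −2 (blue) to 2 (red). Usp3 in cerebellum is the darkest red and Uchl1 in cerebellum the darkest blue, and the proteasome and free ubiquitin group is blue throughout its cerebellum column.

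The main comparison was SCA3 against wild-type within each region. Of the 56 genes 2 were lower in SCA3 brainstem, Usp31 and Usp53 (1.15% of all genes were lower), and 2 were higher in SCA3 striatum, Usp3 and Otud4 (2.07% of all genes were higher). None was called in cerebellum or cortex. The calls amounted to 3.57% of the 56 genes in brainstem (against 1.92% of all genes) and 3.57% in striatum (against 7.54%), and 0.0647% of all genes were called in cerebellum and 0.154% in cortex. At an unadjusted p below 0.05 there were 7 of 56 in brainstem (12.5%, against 13.3% of all genes), 1 in cerebellum (1.79%, against 1.66%; Usp13), 3 in cortex (5.36%, against 4.07%; Otud7b, Usp5 and Usp54) and 11 in striatum (19.6%, against 23.2%). edgeR's quasi-likelihood test, DESeq2 and limma-voom also called 0 in cerebellum and 0 in cortex. The median absolute log2 change of the 56 genes was 0.0956 in brainstem, 0.0383 in cerebellum, 0.0418 in cortex and 0.0812 in striatum, beside 0.0825, 0.0439, 0.057 and 0.109 over all genes.

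**Figure D3:**
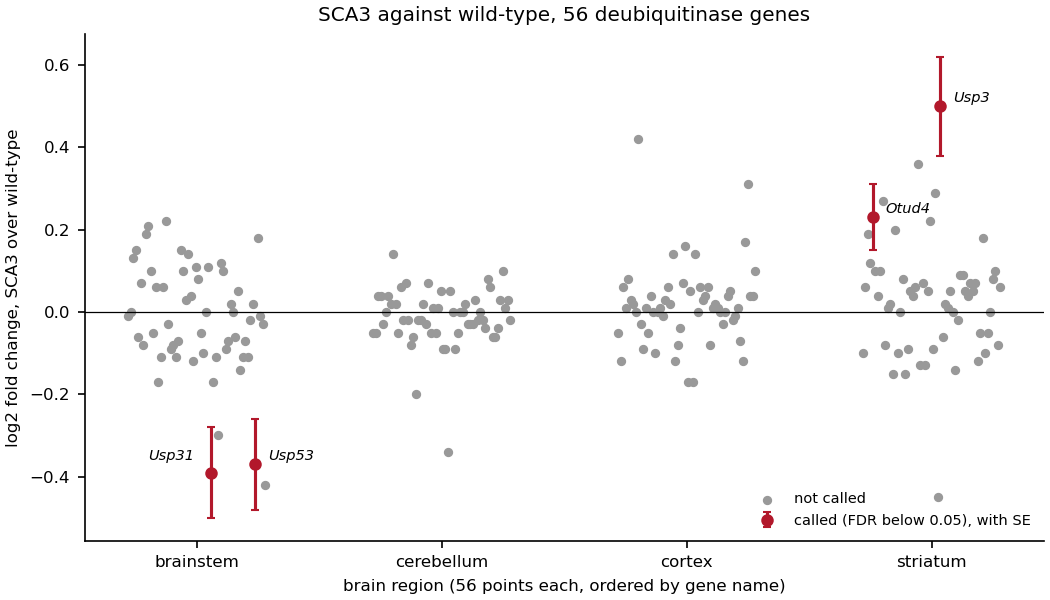
Log2 fold change of SCA3 over wild-type for the 56 genes in each region (x axis), grey where not called and red with SE bars where the FDR was below 0.05. The red points are Usp31 and Usp53 in brainstem, below 0, and Usp3 and Otud4 in striatum, above 0, and the points of cerebellum and cortex are all grey.

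Usp31, a little studied protease, lies at chr7:121642021-121707253 on the minus strand. In wild-type brainstem its levels were 183, 202, 222, 271, 287, 294, 301 and 303 CPM (median 279), and in SCA3 brainstem 152, 160, 202, 205, 205 and 254 CPM (median 203). All 6 SCA3 libraries lay below the wild-type median, but the ranges overlapped, and the lowest wild-type values, from mice 7267055, 9083373 and 9083375, were level with the middle of the SCA3 group. The log2 change was −0.39 (SE 0.11, FDR 0.027). In the other regions it was −0.09 in cerebellum, 0.06 in cortex and 0.02 in striatum, none of them called.

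Usp53, a protein of cell junctions that is required for hearing in mice, lies at chr3:122931493-122984510 on the minus strand. Its wild-type brainstem levels ran from 24.4 to 51.2 CPM with a median of 38.4, and the SCA3 levels from 21.5 to 32 with a median of 29.6. All 6 SCA3 libraries were below the wild-type median, and only the lowest, from mouse 9083514, was below every wild-type library. The log2 change was −0.37 (SE 0.11, FDR 0.049), next to the threshold. It was 0.03 in cerebellum, 0.17 in cortex and 0 in striatum.

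Oligodendrocyte markers moved in the same brainstem libraries. All 20 markers of mature oligodendrocytes were measured, none was at 0, 7 were called lower in SCA3 brainstem and 0 higher, and their summed level ran from 13000 to 26300 CPM in wild-type and from 11700 to 19200 CPM in SCA3 libraries. Their mean log2 CPM averaged 8.51 (7.95 to 8.8) in wild-type and 8.04 (7.8 to 8.36) in SCA3 brainstem. The wild-type libraries with the lowest scores, from mice 9083373 (7.95) and 7267055 (8.11), were also those with the lowest Usp31 and Usp53, and SCA3 mice 9083514 (7.81) and 9083515 (7.8) were lowest on all 3 measures within their group. These are also the 4 brainstem libraries with high thalamic scores, 5.31 to 5.92 against at most 5.03 in the others, so both kinds of marker moved with Usp31 and Usp53 there. Without them both calls held, at −0.37 for Usp31 (SE 0.1, FDR 0.02) and −0.39 for Usp53 (SE 0.1, FDR 0.012), in the fit that leaves out the 6 libraries. In a fit of brainstem alone neither gene was called, at −0.40 for Usp31 (SE 0.14, FDR 0.1) and −0.38 for Usp53 (SE 0.15, FDR 0.18). With the thalamic score added to that fit the change was −0.29 for Usp31 (SE 0.08, FDR 0.011) and −0.30 for Usp53 (SE 0.13, FDR 0.17). With the oligodendrocyte score added instead, the log2 change was 0 for Usp31 (SE 0.11, FDR 1) and 0.08 for Usp53 (SE 0.12, FDR 0.76). With a score of only the 10 markers that were not called in any region, chosen after these values were seen, it was −0.26 for Usp31 (SE 0.09, FDR 0.055) and −0.22 for Usp53 (SE 0.1, FDR 0.18). Of 12 astrocyte markers 5 were also called lower and 1 had a log2 change above 0. Of 12 microglia markers 1 was called lower and 0 had a log2 change above 0. Whether cell content accounts for the change in Usp31 or Usp53 was not tested.

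Both brainstem calls lay close to the threshold. Without each of the 14 mice in turn the log2 change was −0.49 to −0.34 for Usp31 and −0.45 to −0.29 for Usp53. Leaving out any of wild-type mice 7267058, 7267059, 9082857, 9083371 or 9083372, or SCA3 mice 7267054, 9083514 or 9083515, ended the calls of Usp31 (FDR 0.052 to 0.19) and of Usp53 (FDR 0.076 to 0.29), and leaving out SCA3 mouse 9083513 ended that of Usp53 alone (FDR 0.056). With RIN as a covariate the FDR was 0.073 for Usp31 and 0.23 for Usp53, and with a RIN of at least 7 it was 0.068 and 0.18. All brainstem libraries together averaged a RIN of 7.24 in wild-type and 7.78 in SCA3. Within the sets of mice whose numbers begin alike, the mean log2 difference of Usp31 was −0.31 (2 SCA3 and 3 wild-type), −0.25 (1 and 1) and −0.51 (3 and 4), and that of Usp53 was −0.39, −0.33 and −0.34.

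Among the genes not called in brainstem, Usp9x was near the threshold. This X-linked protease of endosomal sorting and signalling, with neurodevelopmental roles, ran from 227 to 312 CPM in wild-type (median 251) and from 156 to 248 in SCA3 brainstem (median 187), and 5 of 6 SCA3 libraries lay below every wild-type library. Its log2 change was −0.42 (SE 0.13, FDR 0.059), so it was not called, whereas DESeq2 gave an adjusted p of 0.044 and edgeR on the brainstem libraries alone an FDR of 0.0061. Without the 6 libraries with high thalamic scores it was −0.35 (SE 0.15, FDR 0.45). Usp34 and Usp19 were further from the threshold. Usp34, a Wnt pathway protease, ran from 159 to 213 CPM in wild-type and from 129 to 203 in SCA3 brainstem, a log2 change of −0.30 (SE 0.11, FDR 0.14). Usp19, a protease with a form anchored in the endoplasmic reticulum, was the only one of the 56 whose brainstem ranges did not overlap (1.38% of all genes did not), at 151 to 171 CPM in wild-type and 175 to 193 in SCA3, yet the size was 0.15 (SE 0.06, FDR 0.24).

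In striatum Usp3, at chr9:66514637-66593142 on the minus strand, stood at 26.1, 26.6, 32.9, 35.5, 38.7, 40.3, 46.9 and 49.1 CPM in wild-type mice (median 37.1) and at 42.7, 45.1, 55.9, 58.9 and 59.6 CPM in SCA3 mice (median 55.9). All 5 SCA3 libraries were above the wild-type median and 3 were above every wild-type library. The log2 change was 0.50 (SE 0.12, FDR 0.0028), the largest rise among the 56 genes in any region. In the other regions it was 0 in brainstem, 0.05 in cerebellum and 0.14 in cortex, none called, and the test of whether the genotype effect differed between regions gave an FDR of 0.36 for Usp3.

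Otud4, an OTU protease of alkylation repair that is mutated together with the ligase RNF216 in a human ataxia with hypogonadism, lies at chr8:79639618-79677724 on the plus strand. Its wild-type striatal levels were 102, 123, 125, 129, 139, 152, 156 and 158 CPM (median 134), and the SCA3 levels were 147, 151, 160, 164 and 175 CPM (median 160). All 5 SCA3 libraries were above the wild-type median and 3 above every wild-type library. The log2 change was 0.23 (SE 0.08, FDR 0.033), and −0.06 in brainstem, −0.03 in cerebellum and 0.08 in cortex.

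Several marker lists differed between the same striatal libraries. The mean log2 CPM of the 13 striatal projection neuron markers measured averaged 8.26 (7.12 to 9.23) in wild-type and 8.92 (8.61 to 9.17) in SCA3 striatum; all 13 had a log2 change above 0, none was called and none was at 0. The thalamic score ran from 3.4 to 7.34 in wild-type and from 3.34 to 5.09 in SCA3, and 6 of its 10 markers were called lower (5.47% of all genes were). Of 20 oligodendrocyte markers 10 were called lower and 0 had a log2 change above 0, with a summed level of 8320 to 24200 CPM in wild-type and 7610 to 11700 CPM in SCA3. Of 12 astrocyte markers 6 were called lower and 1 had a log2 change above 0, with 5870 to 8700 and 5870 to 6540 CPM. Markers of neurons in general were mixed: of 10, 4 had a log2 change above 0 and 2 were called, both lower (Stmn2 at −0.60 and Syp at −0.43). Their median change was −0.19, and their summed level ran from 6220 to 8790 CPM in wild-type and from 6280 to 8380 CPM in SCA3. No marker of these lists was at 0. In fits of striatum alone, where Usp3 had a log2 change of 0.50 (FDR 0.12) and Otud4 of 0.23 (FDR 0.32), the value of Usp3 was 0.32 with the thalamic score (FDR 0.44) and 0.23 with the projection neuron score (FDR 1), and that of Otud4 was 0.10 (FDR 0.82) and 0.07 (FDR 1). With the oligodendrocyte score it was 0.40 for Usp3 (FDR 0.3) and 0.11 for Otud4 (FDR 0.74), and with the uncalled markers 0.46 (FDR 0.12) and 0.19 (FDR 0.34), so neither gene was called in any fit of striatum alone. The projection neuron score was added after the data were seen. Without the 6 libraries with high thalamic scores Usp3 kept its call, and Otud4 had a log2 change of 0.16 (SE 0.07, FDR 0.25). The part of these markers in the changes of Usp3 and Otud4 was not tested.

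Leaving out any single mouse did not end the striatal call of Usp3, but a RIN of at least 7 did (0.46, SE 0.14, FDR 0.065), as did the largest set of mouse numbers alone (0.48, SE 0.19, FDR 0.3). Both settings also ended that of Otud4 (FDR 0.21 and 0.78). The call of Otud4 further ended without wild-type mouse 7267059, whose library was the lowest (0.18, FDR 0.12), without wild-type mice 7267058, 9083372 or 9083373, and without SCA3 mice 7267054, 7267056 or 9083515 (FDR 0.071 to 0.18). Within the sets of mice whose numbers begin alike, the difference of Usp3 was 0.82 (2 SCA3 and 3 wild-type), −0.20 (1 and 1) and 0.51 (2 and 4), and that of Otud4 was 0.48, −0.05 and 0.14, so the set with 1 mouse a genotype went against the others.

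**Figure D4:**
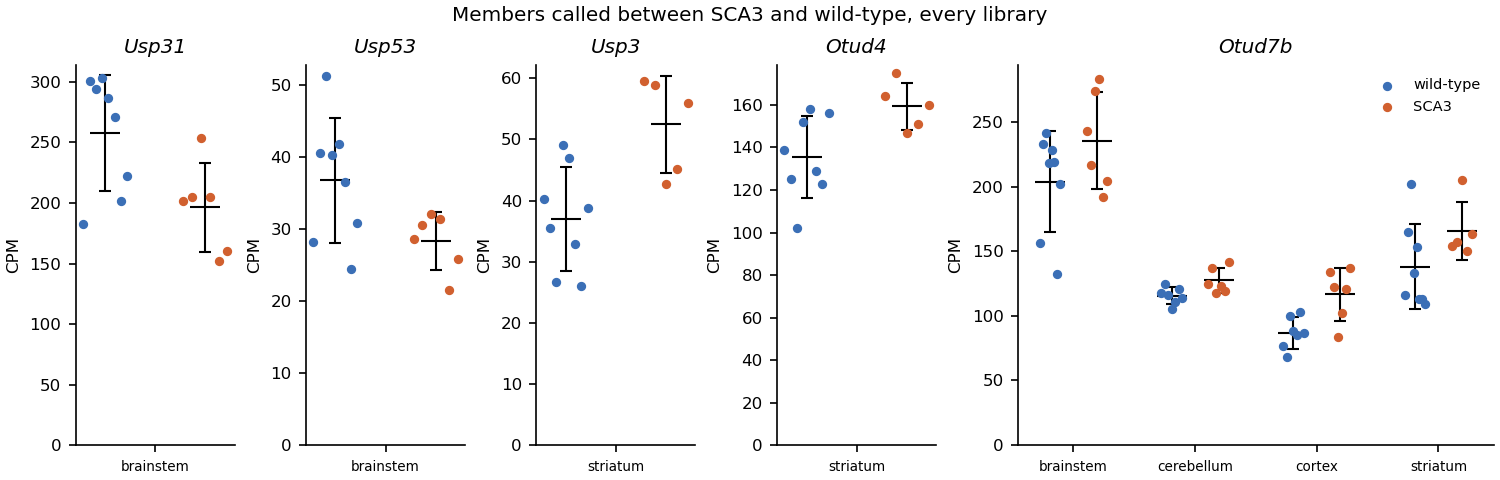
CPM (y axis) of Usp31 and Usp53 in brainstem, Usp3 and Otud4 in striatum and Otud7b in all 4 regions, each library a point, wild-type in blue and SCA3 in orange, with mean and SD. All SCA3 libraries of Usp31 and Usp53 lie below the wild-type medians of 279 and 38.4 CPM, and all those of Usp3 and Otud4 lie above the wild-type medians of 37.1 and 134 CPM.

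A test of any genotype effect over the 4 regions together called 2 of the 56 genes (3.57%, against 4.73% of all genes), Usp3 (FDR 0.026) and Otud7b (FDR 0.027). Otud7b, at chr3:96104527-96161129 on the plus strand, was not called in any region alone, and its log2 change was above 0 in all 4. In brainstem its wild-type levels ran from 132 to 241 CPM (median 218) and its SCA3 levels from 192 to 283 (median 230). In cerebellum they ran from 105 to 125 (median 116) and from 118 to 142 (median 124), in cortex from 68 to 103 (median 86.9) and from 83.5 to 137 (median 121), and in striatum from 109 to 202 (median 124) and from 150 to 205 (median 157). The ranges overlapped in every region, with 3 of 6, 6 of 6, 5 of 6 and 5 of 5 SCA3 libraries above the wild-type median. The log2 changes of Otud7b were 0.21 (SE 0.13, FDR 0.47), 0.14 (SE 0.13, FDR 1), 0.42 (SE 0.13, FDR 0.32) and 0.27 (SE 0.13, FDR 0.20) in the same order.

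The combined result for Otud7b and Usp3 also depended on single mice. Without SCA3 mice 7267054, 7267056 or 9083515, or wild-type mice 7267055, 9083372 or 9083375, the combined FDR of Otud7b was 0.065 to 0.13, and without SCA3 mice 7267054, 7267056 or 9083515, or wild-type mice 7267058, 9083372 or 9083373, that of Usp3 was 0.076 to 0.15. The libraries of a mouse from different regions are not independent, and with the mouse as a replicate block limma-voom gave a combined FDR of 0.18 for Otud7b and 0.074 for Usp3, against 0.062 for Otud7b and a call for Usp3 without the block. Without the 6 libraries with high thalamic scores the combined FDR was 4.1e-06 for Otud7b and 0.15 for Usp3, and Otud7b was called in cortex (0.42, SE 0.10, FDR 0.0054) and striatum (0.43, SE 0.11, FDR 0.0047). The combined test then also called Usp31, Usp53 and Usp54. Without SCA3 mouse 9082853, whose cortical library was the lowest of its group, it was called in cortex (0.51, FDR 0.04).

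Within each genotype Otud7b was lowest in the 4 brainstem libraries that had both low oligodendrocyte and high thalamic scores. In wild-type brainstem the lowest Otud7b values, 132 and 156 CPM, were from mice 9083373 and 7267055, which also had the lowest oligodendrocyte scores, and among SCA3 mice the lowest, 192 and 204 CPM, were from 9083514 and 9083515. The mean oligodendrocyte score was lower in SCA3 brainstem and the median of Otud7b was not. In fits of 1 region with that score, the genotype difference of Otud7b was 0.68 in brainstem (FDR 1.2e-30), 0.17 in cerebellum (SE 0.06, FDR 0.27), 0.47 in cortex (FDR 2.4e-06) and 0.60 in striatum (FDR 6.6e-15). With the score of the 10 uncalled markers it was 0.37 in brainstem (SE 0.05, FDR 7.7e-14), 0.13 in cerebellum (FDR 0.5), 0.29 in cortex (FDR 0.059) and 0.41 in striatum (FDR 4.5e-08). The brainstem fits called 7 of the 56 genes with the first score (12.5%, against 13% of all genes) and 6 with the latter (10.7%, against 7.29%). Both scores contain genes of the cells under study, and these values describe differences at a given score and not at a measured number of cells. Usp54 resembled Otud7b, with log2 changes of 0.18 in brainstem (FDR 0.40), 0.10 in cerebellum, 0.31 in cortex (FDR 0.40) and 0.08 in striatum, a combined FDR of 0.077, and 0.38 in brainstem with the full score (FDR 2.4e-06). Without the 6 libraries Usp54 was called in cortex (0.31, SE 0.08, FDR 0.021). Usp54 was named after its values were seen.

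**Figure D5:**
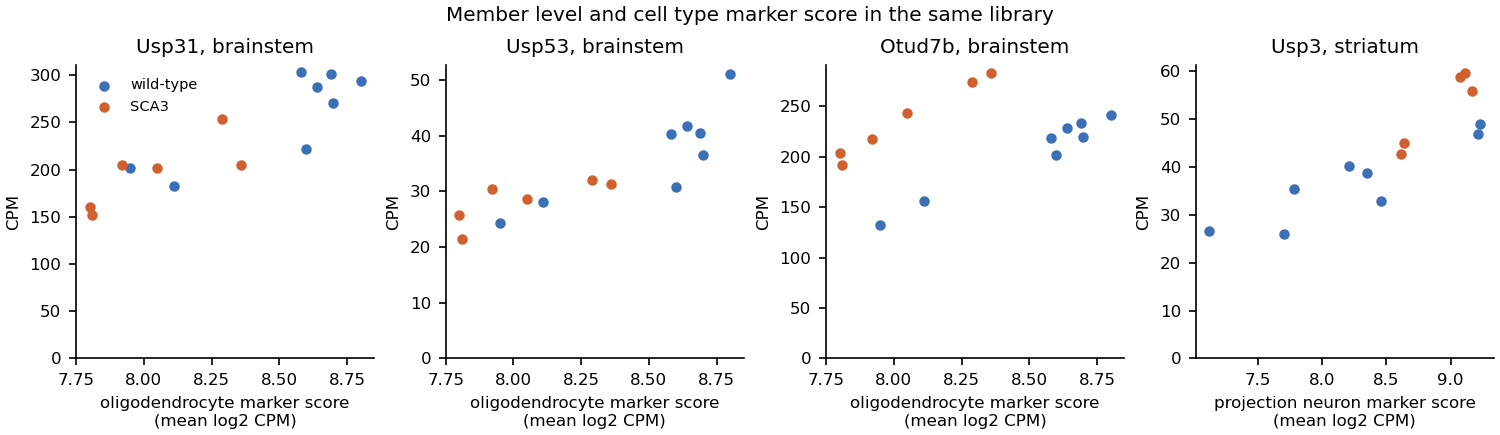
Each point is 1 library, wild-type in blue and SCA3 in orange, with a marker score (mean log2 CPM) on the x axis and the gene's CPM on the y axis, for Usp31, Usp53 and Otud7b in brainstem and Usp3 in striatum. For Usp31 and Usp53 the SCA3 points lie at the low end of the band of wild-type points, whereas for Otud7b they lie above the wild-type points at scores up to 8.36. Only wild-type mice 9083373 (7.95) and 7267055 (8.11) have such brainstem scores, and both libraries had high thalamic scores.

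No gene of the 56 was called in the test of whether the genotype effect differed between regions by edgeR, and 0.218% of all genes were. At an unadjusted p below 0.05 there were 6 (10.7%, against 9.09% of all genes), and DESeq2 and limma-voom called 0. The FDR was 0.38 for Usp31, 0.24 for Usp53 and 0.40 for Otud4. The changes in brainstem and striatum were therefore not shown to be particular to those regions. The sign of the unrounded log2 change was the same in all 4 regions for 14 of the 56 genes (25%, against 23.8% of all genes). For 2 of them, Usp3 in brainstem and Otud5 in cerebellum, a value was 0 at 2 decimals and its sign means nothing. The others were above 0 for Otud1, Otud3, Otud7b, Uchl4, Usp2, Usp25 and Usp54 and below 0 for Otub1, Uchl5, Usp14, Usp29 and Usp49.

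The genes with textbook roles at the proteasome or on ubiquitin itself were not called between genotypes in any region. The log2 changes in brainstem, cerebellum, cortex and striatum were 0.10, 0.02, −0.03 and −0.08 for Uchl1, −0.08, −0.02, −0.01 and −0.09 for Usp14, −0.17, −0.02, −0.05 and −0.15 for Uchl5, and 0.02, −0.04, −0.12 and −0.05 for Usp5. For Usp7 they were −0.01, 0.01, 0.04 and 0.10. The SE of these values was 0.05 to 0.13, which sets the size of change that could have been seen. Among the OTU genes other than Otud4 and Otud7b the changes ran from −0.12 for Otub2 in cortex to 0.19 for Otud7a in brainstem and for Otud1 in striatum. Usp29, the most variable of the 56, had a log2 change of −0.45 in striatum (SE 0.27, FDR 0.31) and −0.34 in cerebellum (SE 0.26, FDR 1). Usp2 in striatum was near the threshold at 0.36 (SE 0.13, FDR 0.066), with 47.9 to 83.5 CPM in wild-type and 72.5 to 93.9 CPM in SCA3 mice.

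Beside the 56 genes, 30 of 36 listed deubiquitinases of other names and families were measured. Of these 2 were called, both in striatum (6.67%, against 7.54% of all genes): Atxn3, the mouse counterpart of the transgene, rose by 0.33 (SE 0.06, FDR 0.00012), and Stambpl1, a metalloprotease related to the endosomal enzyme AMSH, was lower at −0.32 (SE 0.11, FDR 0.047). Reads of the human transgene that match the mouse gene would be counted with Atxn3. Of 15 measured partner proteins of deubiquitinases, 29 E2 enzymes and 6 genes of ubiquitin and its E1 enzymes, 0 were called by edgeR in any region, 16 of the 200 values of a gene in a region had an unadjusted p below 0.05 (8%, against 10.6% over all genes), DESeq2 called 1, and the medians of their log2 changes lay between −0.072 and 0.03.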

How the data were processed

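Poly-A RNA libraries, made with a kit that does not keep strand, had been sequenced as paired reads. Per the submitters' processing notes, the authors used bcl2fastq 1.8, FastQC 0.11.2, cutadapt 1.10, STAR 2.3.0e, HTSeq 0.6.1 and edgeR 3.14.0 on the mouse build GRCm38. The deposited table held raw read counts per gene, already reduced by the authors to 12372 genes with a mean of about 4 CPM or more (the lowest mean here was 4.07), so members below that level are not analysed here. Columns were matched to mice by their labels, and each mouse gave at most 1 library per region.

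All 53 libraries entered 1 fit of 8 groups in edgeR 4.0.16 (TMM, likelihood ratio test, R 4.3.3), after the method of the study, with Benjamini-Hochberg adjustment over 12372 genes. Standard errors are Wald errors from the fit. Marker scores are mean log2 CPM with a prior count of 2. Alternatives used quasi-likelihood tests, limma 3.58.1, DESeq2 1.42.0, other covariates and other libraries. Genes were named by rule: every member called, the extremes of region, level and spread, and members with textbook roles. The members and lists were chosen with earlier results of these data known. The tests were run first on simulated data: of 50 genes changed by 0.5 on the log2 scale, 76% were called in brainstem, 76% in cerebellum, 70% in cortex and 68% in striatum (12372 genes in each), and of 50 changed by 0.25, 32%, 28%, 36% and 20%. Of all calls there 6.83%, 5.1%, 7.5% and 9.03% were false, above the nominal 5%. The simulated libraries were drawn independently, with the same dispersion of a gene in every region and no link between libraries of a mouse. These shares therefore need not hold for the real libraries.

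Libraries of different regions came from the same animals. The mean correlation of their deviations from the group means was 0.09 to 0.186 over the 6 pairs of regions. Within a region every library is a separate mouse, so the block bears mainly on comparisons across regions.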

Additional observations from a re-analysis of the deposited data

Results flagged for a closer look

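Among 80 groups of libraries examined for a single value far from the rest, 3 stood out, and chance alone gives about 1 in 20. Otud4 in wild-type brainstem was 73.2 CPM in mouse 9082857, with the nearest library at 81.4. Otud7b in SCA3 striatum was 205 CPM in mouse 9082853, with the nearest library at 163. Uchl1 in SCA3 brainstem was 376 CPM in mouse 9083515, with the nearest library at 436.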

How the results depend on the processing

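Regional calls of Usp3, Uchl1, Usp2, Usp28, Usp27x and Usp29 held under all 26 alternatives each. Without a minimum difference 45, 42, 40 and 27 genes were called in brainstem, cerebellum, cortex and striatum (70.1%, 73.7%, 59.6% and 55% of all genes were). The counts of called genes between genotypes were less stable. In brainstem (2 genes) the count was 1 with the quasi-likelihood test, with limma-voom without or with the mouse as a replicate block, with age as a covariate (Usp31 in each of these) and with brainstem alone (Usp9x, and neither Usp31 nor Usp53), 0 with RIN as a covariate or a RIN of at least 7, 6 with the thalamic score (10.7%, against 5.45% of all genes), 7 with the oligodendrocyte score (12.5%, against 13%) and 6 with the uncalled markers (10.7%, against 7.29%). In cortex (0) it was 2 without the 6 libraries with high thalamic scores (3.57%, against 0.493%) and 2 with the oligodendrocyte score (3.57%, against 0.816%). In striatum (2) it was 0 with a RIN of at least 7, in the largest set of mouse numbers, in striatum alone, and there with the thalamic or the projection neuron score, but 3 there with the oligodendrocyte score (5.36%, against 3.57%) and 2 with the uncalled markers (3.57%, against 2.38%), Otud7b and Usp25 in both and Usp54 in the first, but neither Usp3 nor Otud4. In the combined test (2) it was 0 with the quasi-likelihood test, 1 with limma-voom and 0 with the replicate block added, 1 with a RIN of at least 7, 1 in the largest set of mouse numbers and 4 without the 6 libraries. Leaving out each of 14 mice gave 0 to 4 in brainstem, 0 to 1 in cortex, 1 to 5 in striatum (5 without wild-type mouse 9082857 or 9083371) and 0 to 3 in the combined test. The share of all genes called moved between settings as well. In striatum it was 7.54% in the main fit and 2.76% without the 6 libraries, with 2 deubiquitinases called in both. Counts given here without a share of all genes therefore cannot be read as particular to the deubiquitinases. In cerebellum and in the test of region dependence every count stayed at 0. The log2 change in brainstem was 0 for Usp31 and 0.08 for Usp53 with the oligodendrocyte score, so that both lost their sign. The causes were not tested. The replicate block ended the combined call of Usp3 and changed no other call between genotypes, nor any regional call with a minimum difference. Without a minimum, edgeR on the wild-type libraries alone called 45, 41, 38 and 22 genes in the order above (67.6%, 71.1%, 56.1% and 51.2% of all genes were). The mouse as a fixed replicate block added to that fit gave 45, 41, 35 and 26 (3 calls ended, 4 added; 70.3%, 73.1%, 57.3% and 55.1% of all genes). In limma-voom the block ended 0 such calls and added 8. The share of all genes called there was 70.4%, 73.9%, 60% and 56.3% without the block and 72.9%, 75.8%, 62.5% and 59.7% with it. The fits without the 6 libraries, with the projection neuron score and with the uncalled markers were chosen after seeing the data. With 5 to 8 mice a group, changes of 0.25 on the log2 scale were mostly missed in simulated data.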
